A study of Mus musculus with 12 samples.

Results

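The genes described here are 10 transcription factors and cofactors of blood stem and progenitor cells: Lmo2, Tal1, Lyl1, Gata2, Runx1, Erg, Meis1, Gfi1, Mecom and Myb. They were chosen by name, and a probe set was taken where the array's annotation named exactly 1 gene and that gene was one of the 10. This gave 23 probe sets of the 34945 that named 1 gene, and the 10 genes stand among 18193 genes tested. Of the genes, 6 had more than 1 probe set, with 6 for Runx1, 3 each for Meis1, Mecom and Myb and 2 each for Gata2 and Erg, while Lmo2, Tal1, Lyl1 and Gfi1 had 1 each.

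The study measured gene expression on 12 Affymetrix arrays, 3 in each of 4 groups. Primary whole bone marrow of female C57BL/6 mice aged 6 weeks was cultured, and cultures were given 17β-estradiol, the main estrogen of the body, at 1 nM for 1 week or were left untreated. The groups were c-kit+ cells from estradiol cultures, c-kit+ cells from control cultures, CD44+ cells from estradiol cultures and CD44+ cells from control cultures. The labels call the c-kit+ cells stem cells and the CD44+ cells stromal cells, and no group carries a transgene or deletion in the labels. The way the cells were selected and any pooling of animals were not given in the sources used here. Labels do not state the origin of the replicates, and p-values therefore cover only the spread between these samples, which may be technical. The precision of every value is limited by the 3 arrays a group.

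Blood stem cells keep their identity through a set of transcription factors that bind DNA together and regulate one another's genes. Tal1 and Lyl1 are related basic helix-loop-helix proteins that pair with E proteins on E-box sequences, Gata2 is a zinc-finger protein that binds GATA sequences, and Lmo2 is an adaptor without DNA binding of its own that joins them through Ldb1. Runx1, with its partner Cbfb, and the ETS factor Erg bind beside them. Meis1 is a homeodomain partner of Hox proteins, Mecom a zinc-finger factor of self-renewing stem cells, Gfi1 a repressor that restrains stem cell cycling and guides granulocyte formation, and Myb a factor that proliferating progenitors need. Some of them, such as Runx1, are also made in mature myeloid cells, whereas Myb falls as these cells mature.

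RefSeq promoters, each 250 bases before to 50 bases after a transcription start, were found on GRCm38.p6 for 9 of the 10 genes (all but Lmo2), 16 promoters in all. They are printed for Tal1, Lyl1 and Runx1, 3 of the genes that the results turn on. The words were AGATAA and TGATAA for GATA factors, AGGAAG and CGGAAG for ETS factors, TGTGGT and TGCGGT for RUNX factors, and the E-boxes CAGCTG and CAGATG, each searched on both strands. Capitals mark the matches, none of which overlap in the promoters shown. The first promoter of Tal1 (chr4:115056176-115056475, plus strand) held a GATA word before the start and an E-box just after it. Its second promoter (chr4:115057561-115057860, plus strand) held none of the words and is not printed. The promoter of Lyl1 (chr8:84701207-84701506, plus strand) held 1 ETS word. The distal promoter of Runx1 (chr16:92826025-92826324, minus strand) held 2 RUNX words after the start and 1 ETS word before it, and its proximal promoter (chr16:92697280-92697579, minus strand) held none of the words.
Tal1 first promoter: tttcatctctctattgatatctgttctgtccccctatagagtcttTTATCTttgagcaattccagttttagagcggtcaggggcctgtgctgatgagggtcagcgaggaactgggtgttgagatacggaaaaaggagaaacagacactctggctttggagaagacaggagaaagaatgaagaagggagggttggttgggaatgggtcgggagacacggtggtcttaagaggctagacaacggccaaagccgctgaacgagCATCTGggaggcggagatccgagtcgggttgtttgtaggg
Lyl1 promoter: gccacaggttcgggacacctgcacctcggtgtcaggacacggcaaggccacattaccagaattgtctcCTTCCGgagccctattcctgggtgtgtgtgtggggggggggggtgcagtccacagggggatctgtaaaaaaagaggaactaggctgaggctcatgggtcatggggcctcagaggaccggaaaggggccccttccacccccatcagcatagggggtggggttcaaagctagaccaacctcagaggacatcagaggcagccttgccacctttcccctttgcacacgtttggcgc
Runx1 distal promoter: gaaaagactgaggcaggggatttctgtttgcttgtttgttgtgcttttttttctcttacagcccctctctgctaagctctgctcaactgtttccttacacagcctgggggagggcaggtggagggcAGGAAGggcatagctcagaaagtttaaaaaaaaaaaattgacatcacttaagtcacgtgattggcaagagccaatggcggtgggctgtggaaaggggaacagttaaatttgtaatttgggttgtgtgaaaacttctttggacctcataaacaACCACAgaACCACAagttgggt
Runx1 proximal promoter: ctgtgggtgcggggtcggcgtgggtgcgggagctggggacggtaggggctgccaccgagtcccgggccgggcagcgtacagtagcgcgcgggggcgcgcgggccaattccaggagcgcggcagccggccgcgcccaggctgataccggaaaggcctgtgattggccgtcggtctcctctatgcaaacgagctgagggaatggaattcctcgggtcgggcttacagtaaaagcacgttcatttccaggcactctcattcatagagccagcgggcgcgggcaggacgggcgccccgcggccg
Over the 16 promoters of the 9 genes, 3 held a GATA word, 6 an ETS word, 2 a RUNX word and 4 an E-box. Among all 32851 promoters of this length in the table, 18.6% held a GATA word, 46.5% an ETS word, 22.4% a RUNX word and 30.6% an E-box. A match describes the letters of the window and is not evidence of a bound site.

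Lmo2, Lyl1 and Runx1 lay above background in all 4 groups, and the other 7 genes did not in any. Background was read on each array from genes that these cells should not use: the brightest of 20 Y-linked probe sets, since the mice were female, or the 95th percentile of 44 olfactory receptor probe sets, whichever was higher. A gene was called above background in a group where all 3 of its arrays were above this level. The level was between 6.13 and 6.37 on the log2 scale of the deposited values and was set on every array by the Y-linked side, while the olfactory percentile was between 4.70 and 5.06. The brightest Y-linked probe set, of Sry, is marked as matching other transcripts, and calls at other levels are given at the end. By the same rule 8735 of the 18193 genes (48%) were above background in at least 1 group.

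Gata2, Meis1 and Tal1 lay around or under the Y-linked level and above the olfactory one. Gata2 was above the higher level on 7 of 12 arrays, Meis1 on 6 and Tal1 on 2, and all 3 genes were above the olfactory percentile on every array. Read against the olfactory percentile alone, 6 of the 10 genes were above background in all groups, beside 61.2% of all genes. Erg, Mecom, Myb and Gfi1 were above the Y-linked level on none of the 12 arrays, and none of these 4 was called above background against the olfactory percentile either. Of the 23 probe sets, 4 exceeded the Y-linked level on all 12 arrays and 13 on none, counts for which no share over all probe sets was computed. The 4 were the probe sets of Lmo2 and Lyl1 and 2 of the 6 of Runx1.

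**Figure D1:**
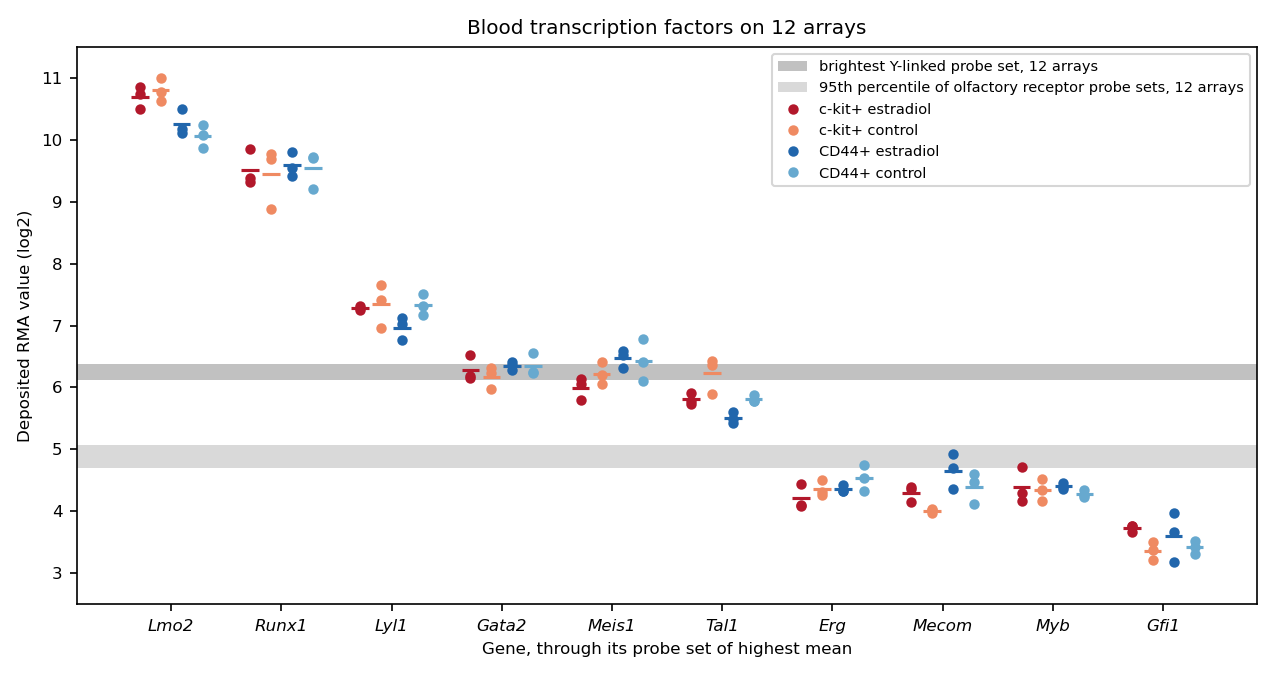
Deposited RMA values (log2, vertical axis) of the 10 genes on 12 arrays, with 1 point per array, a short line at each group mean (n = 3) and the groups in the order of the legend. The dark band (6.13 to 6.37) is the range of the brightest Y-linked probe set over the arrays and the light band (4.70 to 5.06) that of the olfactory 95th percentile. Lmo2, Runx1 and Lyl1 lie above the dark band on all 12 arrays, Gata2, Meis1 and Tal1 around or just below it, and Erg, Mecom, Myb and Gfi1 mostly below the light band.

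The label of the c-kit+ cells went against the level of its own transcript. Kit, the receptor for stem cell factor that c-kit names, averaged 3.94 ± 0.02 in c-kit+ estradiol cells, 3.97 ± 0.10 in c-kit+ control cells, 3.93 ± 0.13 in CD44+ estradiol cells and 4.01 ± 0.21 in CD44+ control cells (SD, n = 3 each). Both Kit probe sets were below background on all 12 arrays, with values between 3.54 and 4.22. Cd44, an adhesion receptor, had 4 probe sets. The brightest averaged 12.14 ± 0.18 and 11.93 ± 0.15 in estradiol and control c-kit+ cells, and 12.33 ± 0.12 and 12.12 ± 0.23 in estradiol and control CD44+ cells (SD, n = 3 each). On it the fractions differed by -0.19 (c-kit+ minus CD44+) in estradiol cultures (adjusted p = 0.782) and by -0.19 in control cultures (adjusted p = 0.615). The second brightest averaged 11.72 in c-kit+ and 11.74 in CD44+ estradiol cells. A dimmer one, also above background on all arrays, averaged 8.19 ± 0.06 in c-kit+ and 8.64 ± 0.16 in CD44+ estradiol cells. In control cultures it averaged 8.14 ± 0.09 in c-kit+ and 8.12 ± 0.17 in CD44+ cells. Another was below background on all 12 arrays (3.16 to 3.62), so a dark probe set alone does not show an absent transcript.

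All 10 macrophage and monocyte markers on the list used here were above background in both fractions, among them Csf1r, the receptor for macrophage colony-stimulating factor, at group means between 13.99 and 14.07. Of 9 stem and progenitor surface and signalling genes analysed, 4 were above background in at least 1 group (Cd34, Flt3, Procr and Cd48), and Kit, Slamf1, Itga2b and Mpo were below it on all arrays. Procr and Cd48 were above it in all 4 groups, Cd34 only in both CD44+ groups and Flt3 only in CD44+ control cells. Cd34 was lower in c-kit+ than in CD44+ cells, by -1.43 in estradiol cultures (limma, adjusted p = 0.0318) and by -1.28 in control cultures (adjusted p = 0.06, not passed). None of 8 mast cell, 5 erythroid or 7 neutrophil markers was above background in any group, and Vwf was the 1 of 12 endothelial markers that was. Cpa3, Ngp and S100a8 exceeded the level on some arrays without meeting the rule. Cpa3 was at 6.31 on c-kit+ estradiol replicate 1, and Ngp at 7.08 on CD44+ estradiol replicate 1. Pf4 of 5 megakaryocyte markers, and Ighm and Il7r of 7 lymphoid markers, were above background in all 4 groups. In the rest of the text the fractions keep their labelled names.

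None of the 10 genes passed the limma test for an effect of estradiol in c-kit+ cells, at a threshold of 0.05 on the adjusted p. Over all genes 0.181% passed in this comparison (33 genes), 0.176% higher and 0.0055% lower with estradiol, and over the 34945 probe sets 0.117% passed. At an unadjusted p under 0.05 stood 2 of the 10 genes, Tal1 and Gfi1, and 4.47% of all genes. The estradiol and control arrays did not overlap for 2 of the 10, Gfi1 and Mecom, and for 7.81% of all genes. The 95% intervals of the 10 differences, each computed for 1 gene alone, together ran from -0.71 to 0.72 on the log2 scale. Only Lmo2, Lyl1 and Runx1 were above background. For the other genes the intervals describe the probe set value and do not limit the size of a change in the transcript. The median difference of the 10 was -0.0016, against 0.0162 over all genes.

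Tal1 had values of 5.78, 5.73 and 5.90 in c-kit+ estradiol cells, against 6.42, 6.37 and 5.90 in c-kit+ control cells. The third control array lay among the estradiol arrays and the other two above them, so the groups overlap. The difference was -0.42 (SE 0.13, 0.745-fold), with an adjusted p of 0.569 over all genes. Of 14 alternatives 1 passed, the fit without c-kit+ control replicate 3, where the difference was -0.59 (adjusted p = 0.0387). This fit leaves out the control value that lay among the estradiol arrays. That array deviated from its group mean with an SD of 0.266 over all genes, against 0.123 to 0.188 for the other 11 arrays. The Tal1 probe set was above background on 2 of the 6 c-kit+ arrays, both of them controls.

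Gfi1, the granulocyte and stem cell repressor, had 3.77, 3.76 and 3.66 in c-kit+ estradiol cells, against 3.50, 3.38 and 3.21 in c-kit+ control cells. All of these values are below background, and the difference was 0.37 (SE 0.16, adjusted p = 0.999). Mecom was likewise below background, with 4.16, 4.39 and 4.36 in c-kit+ estradiol cells against 4.04, 3.98 and 4.01 in c-kit+ control cells and a difference of 0.29 (SE 0.15, adjusted p = 0.999). Lmo2 had 10.85, 10.74 and 10.50 in c-kit+ estradiol cells, against 10.78, 10.64 and 11.00 in c-kit+ control cells. The groups overlap, and the difference was -0.11 (95% interval -0.42 to 0.21).

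None of the 10 genes passed the limma test for estradiol in CD44+ cells either. Over all genes 0.291% passed (53 genes), 0.28% higher and 0.011% lower with estradiol, and over the probe sets 0.212% passed. With the replicate number as a block, 101 genes and none of the 10 passed. An unadjusted p under 0.05 was reached by 2 of the 10, Tal1 and Lyl1, and by 5.38% of all genes. The groups did not overlap for 3 of the 10, Tal1, Lyl1 and Myb, and for 12.7% of all genes. The 95% intervals of the 10 differences together ran from -0.71 to 0.59, and their median was 0.0453, against 0.0104 over all genes.

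The related helix-loop-helix genes Tal1 and Lyl1 gave the most negative differences of the 10 in CD44+ cells. Lyl1 had 7.11, 6.76 and 7.03 in CD44+ estradiol cells, against 7.32, 7.17 and 7.51 in CD44+ control cells. Every estradiol array was below every control array, and the difference was -0.36 (SE 0.16, 0.777-fold, adjusted p = 0.901). Tal1 had 5.60, 5.49 and 5.42 in CD44+ estradiol cells, against 5.77, 5.87 and 5.79 in CD44+ control cells. The groups again did not overlap, all 6 arrays were below background, and the difference was -0.31 (SE 0.13, adjusted p = 0.877). Myb had 4.45, 4.36 and 4.40 in CD44+ estradiol cells, against 4.26, 4.34 and 4.23 in CD44+ control cells, all below background, and differed by 0.12 (adjusted p = 0.953).

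Lmo2 had 10.18, 10.12 and 10.49 in CD44+ estradiol cells, against 10.24, 10.08 and 9.87 in CD44+ control cells. The groups overlap, with the third estradiol array the highest of the 6 and the third control array the lowest, and the difference was 0.20 (95% interval -0.12 to 0.51). Runx1, through its brightest probe set, had 9.38, 9.32 and 9.85 in c-kit+ estradiol cells, against 9.77, 9.69 and 8.88 in c-kit+ control cells. In the other fraction it had 9.55, 9.81 and 9.41 in CD44+ estradiol cells, against 9.71, 9.72 and 9.21 in CD44+ control cells. All 4 groups overlap, and the lowest value is that of c-kit+ control replicate 3. The Runx1 differences with estradiol were 0.07 in c-kit+ cells (SE 0.23) and 0.04 in CD44+ cells (SE 0.23).

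The effect of estradiol was not shown to differ between the fractions for any of the 10 genes. In the limma test of that difference 0 of the 10 passed, 0 of all 18193 genes (0%) passed in either direction, and 0 of the probe sets passed. At an unadjusted p under 0.05 stood none of the 10 and 1.63% of all genes. The 95% intervals of the 10 differences of effects together ran from -0.78 to 0.80.

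**Figure D2:**
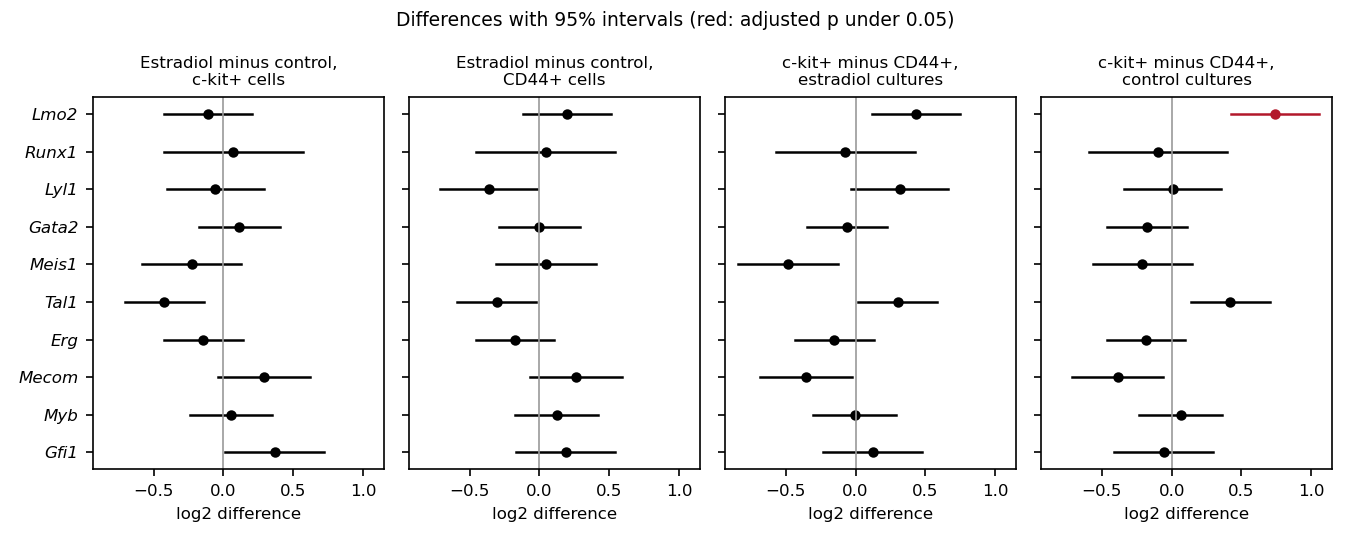
Log2 differences (points) with 95% intervals (lines) of the 10 genes in 4 comparisons, from the fit over all 12 arrays. Lmo2 between the control fractions, at 0.74, is the 1 difference with an adjusted p under 0.05 and is drawn in red.

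Between the fractions, Lmo2 was higher in c-kit+ cells than in CD44+ cells. In control cultures it had 10.78, 10.64 and 11.00 in c-kit+ cells, against 10.24, 10.08 and 9.87 in CD44+ cells. Every c-kit+ array was above every CD44+ array, and the log2 difference was 0.74 (SE 0.15, 1.67-fold higher in c-kit+ cells, 95% interval 0.43 to 1.05, adjusted p = 0.0165). In estradiol cultures it had 10.85, 10.74 and 10.50 in c-kit+ cells, against 10.18, 10.12 and 10.49 in CD44+ cells. The lowest c-kit+ array and the highest CD44+ array were nearly equal, and the difference of 0.43 (SE 0.15, 95% interval 0.12 to 0.75) had an adjusted p of 0.22 and did not pass.

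Lmo2 averaged 10.70 ± 0.18 in c-kit+ estradiol, 10.80 ± 0.18 in c-kit+ control, 10.26 ± 0.20 in CD44+ estradiol and 10.06 ± 0.19 in CD44+ control arrays (SD, n = 3 each). The highest mean was that of c-kit+ control cells and the lowest that of CD44+ control cells, and within each fraction the estradiol and control arrays overlap. The call between the control fractions was lost when only the arrays of that comparison entered the fit (adjusted p = 0.0739), without c-kit+ control replicate 1 (adjusted p = 0.0555) and without CD44+ control replicate 3 (adjusted p = 0.091). Without c-kit+ control replicate 3, the array that deviated most, the difference was 0.64 and passed (adjusted p = 0.042).

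Values of RNA quality and of other cell types moved with the Lmo2 difference. The Gapdh control probe sets read 3' minus 5' gave 4.23 to 6.17 on the log2 scale in c-kit+ estradiol and 4.62 to 5.35 in c-kit+ control arrays, against 3.32 to 4.31 in CD44+ estradiol and 2.83 to 4.14 in CD44+ control arrays. With this measure as a covariate the Lmo2 difference was 0.60 (adjusted p = 0.224). The measure did not overlap between the control fractions, so this fit cannot tell its part from that of the fraction. Of 10 macrophage markers 3 rose in c-kit+ control cells (Fcgr1, Mrc1 and Mertk) and 7 did not pass. Among the latter, Itgam averaged 6.85 in c-kit+ and 7.20 in CD44+ control cells. The summed linear level of the 10 was 78830 to 85590 in c-kit+ control arrays, against 61990 to 77100 in CD44+ control arrays. In estradiol cultures the sums overlapped, at 79290 to 85490 in c-kit+ and 74770 to 81730 in CD44+ arrays. The summed level of 11 mesenchymal markers was 559 to 778 in c-kit+ control arrays, against 2356 to 6072 in CD44+ control arrays. Of the 11, 6 fell, among them Col1a1, a chain of type I collagen (-1.75). Of these 11, Col1a1, Col1a2, Col3a1, Pdgfrb, Cxcl12 and Postn were above background in at least 1 group, and Lum, Dcn, Lepr and Sp7 were below it on all arrays. That of 6 dendritic cell markers was 738 to 1571 in c-kit+ control arrays, against 2432 to 3158 in CD44+ control arrays. Of these 6, 3 were above background (Flt3, Cd74 and H2-Aa), Siglech and Xcr1 were below it on all arrays, and 2 fell in c-kit+ control cells, the antigen presentation genes Cd74 (-1.41, adjusted p = 0.00317) and H2-Aa (-1.47, adjusted p = 0.0181). The part of these differences in the Lmo2 result was not tested. In such bulk samples a smaller share of cells that make a transcript and less of it per cell cannot be told apart.

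**Figure D3:**
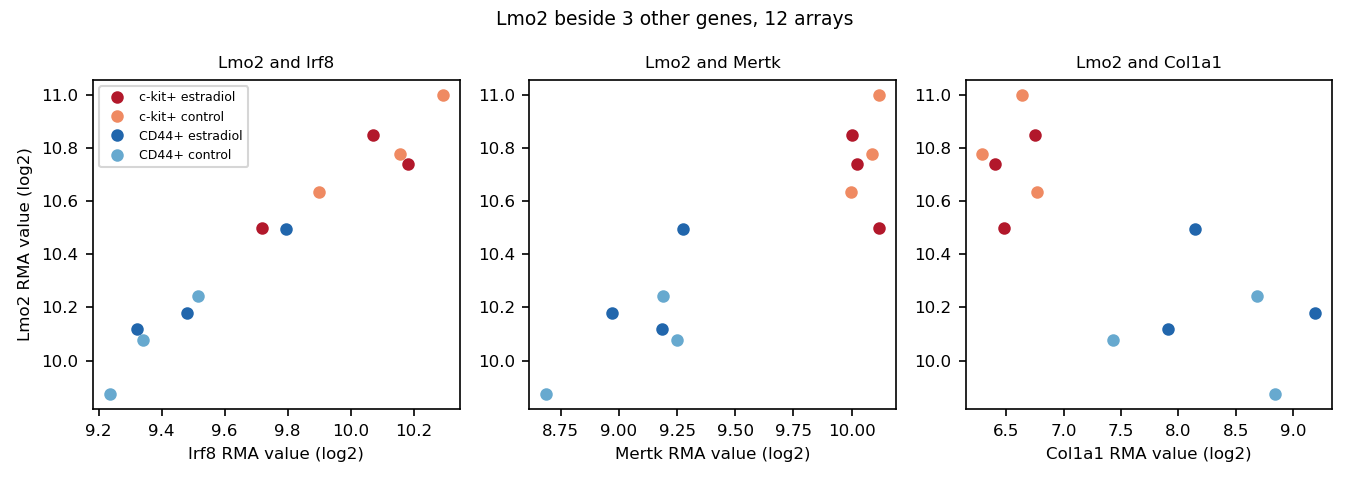
Lmo2 (vertical axes, log2 RMA value) plotted on each of the 12 arrays against Irf8, Mertk and Col1a1 (horizontal axes, log2 RMA values), coloured by group. The c-kit+ arrays lie above the CD44+ arrays for Lmo2 and Mertk and below them for Col1a1. Irf8 (Pearson r = 0.98) was chosen as the gene most correlated with Lmo2 on these arrays among 8732 genes.

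Of the 10 genes, Lmo2 alone passed between the control fractions, beside 2.3% of all genes (418), 0.539% higher and 1.76% lower in c-kit+ cells, and 1.65% of the probe sets. An unadjusted p under 0.05 was reached by 3 of the 10, Lmo2, Tal1 and Mecom, and by 13.6% of all genes. These 3 were also the genes whose groups did not overlap, as for 15.7% of all genes. Between the estradiol fractions none of the 10 passed, beside 2.65% of all genes (483), 0.324% higher and 2.33% lower in c-kit+ cells, and 1.9% of the probe sets. There 4 of the 10, Lmo2, Tal1, Meis1 and Mecom, had an unadjusted p under 0.05, as did 9.77% of all genes. The groups did not overlap for 4 of the 10, Lmo2, Tal1, Lyl1 and Meis1, and for 18.2% of all genes. The comparisons between fractions share their arrays with those of estradiol, so their values are given side by side and are not independent.

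Tal1 stood higher in c-kit+ than in CD44+ arrays in both kinds of culture without passing. In control cultures the difference was 0.42 (SE 0.13, adjusted p = 0.145), with the lowest c-kit+ array at 5.90 and the highest CD44+ array at 5.87. Of 14 alternatives 3 passed, among them the fit without c-kit+ control replicate 3, the lowest of these c-kit+ arrays (0.59, adjusted p = 0.00861). In estradiol cultures the difference was 0.30 (SE 0.13, adjusted p = 0.456), with the lowest c-kit+ array at 5.73 and the highest CD44+ array at 5.60. Lyl1 differed by 0.01 in control cultures, where the groups overlap, and by 0.32 in estradiol cultures (SE 0.16, adjusted p = 0.587), where they do not.

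Gata2, the stem cell member of the GATA family, had the narrowest spread of the genes near background, with values between 5.98 and 6.56 over all 12 arrays. It averaged 6.29 ± 0.21 in c-kit+ estradiol, 6.17 ± 0.17 in c-kit+ control, 6.35 ± 0.07 in CD44+ estradiol and 6.35 ± 0.18 in CD44+ control arrays (SD, n = 3 each), and the groups overlap. Its other probe set, at 3.91 to 4.36, was below background on all arrays. That probe set had 4.27, 4.35 and 4.36 in c-kit+ estradiol cells, against 3.91, 4.07 and 4.11 in c-kit+ control cells, and the difference of 0.30 did not pass over all probe sets (adjusted p = 0.579).

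The 6 probe sets of Runx1 differed in how they stood to background. The brightest 2 were above background on all 12 arrays, at 8.88 to 9.85 and 8.16 to 9.34. Another 3 gave values on both sides of the yardstick, above it on 11, 8 and 5 arrays, and the dimmest was below it on all. In no comparison did any Runx1 probe set pass. On the brightest 2 the lowest of the 12 arrays was c-kit+ control replicate 3. Erg, the ETS factor, stayed at 4.09 to 4.75 on its brighter and 3.34 to 3.61 on its dimmer probe set, and neither passed in any comparison.

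Meis1 had 6.06, 5.79 and 6.13 in c-kit+ estradiol cells, against 6.53, 6.31 and 6.59 in CD44+ estradiol cells. The c-kit+ arrays were all below background and all below the CD44+ arrays, and the difference was -0.48 (SE 0.16, adjusted p = 0.231). The other probe sets of Meis1 were below background on all 12 arrays and gave -0.01 and 0.12 in the same comparison. In control cultures the groups overlap, with 6.42, 6.05 and 6.20 in c-kit+ cells against 6.77, 6.41 and 6.11 in CD44+ cells.

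Mecom, Myb and Gfi1 had no probe set above the Y-linked level on any array. On CD44+ estradiol replicate 1 Mecom, at 4.92, exceeded the olfactory percentile of that array (4.76). Mecom differed by -0.39 between the control fractions (c-kit+ minus CD44+, SE 0.15, adjusted p = 0.266) and by -0.36 between the estradiol fractions (adjusted p = 0.431). A second Mecom probe set gave -0.42 between the control fractions and -0.0039 between the estradiol fractions, and the third 0.05 and 0.08. Myb, over all its probe sets, ranged from 3.06 to 4.72, and Gfi1 from 3.18 to 3.97.

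**Figure D4:**
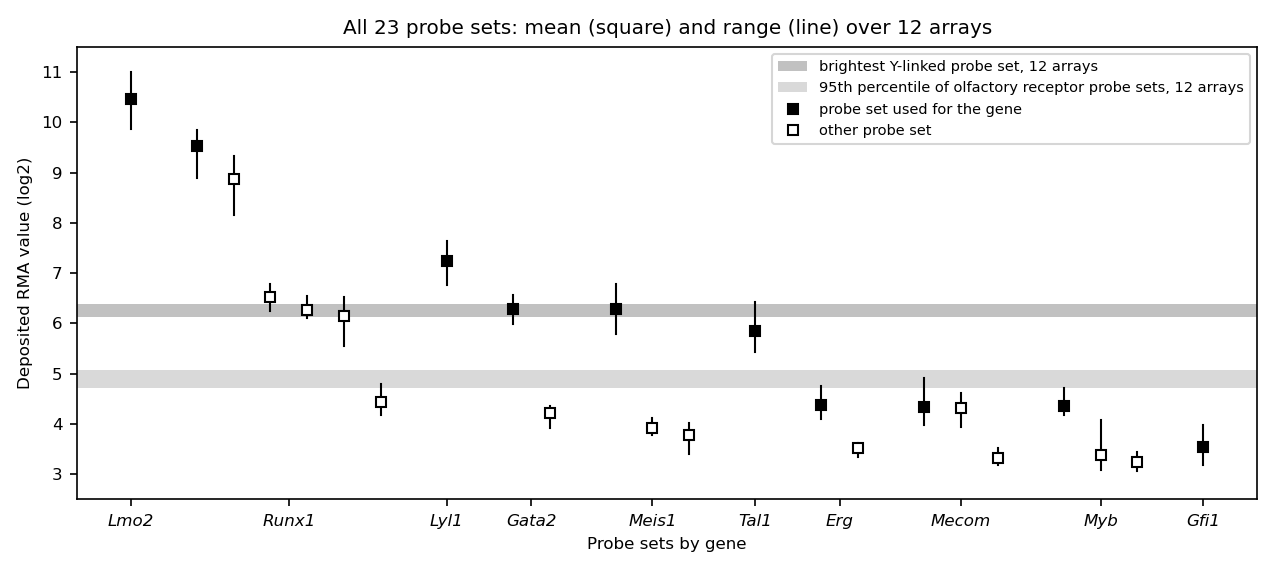
Mean (square) and range (line) over 12 arrays of each of the 23 probe sets, grouped by gene, in deposited RMA values (log2). Filled squares mark the probe set that represents its gene, and the bands are the Y-linked (6.13 to 6.37) and olfactory (4.70 to 5.06) levels. The probe sets of Runx1 span both bands, and those of Erg, Mecom, Myb and Gfi1 lie below the dark band.

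Partners, relatives and lineage factors were taken from a list of 53 genes, of which 49 were analysed here. Of these, 27 were above background in at least 1 group, beside 48% of all genes. Among general partners of the stem cell factors, the E proteins Tcf3, Tcf4 and Tcf12, the Runx partner Cbfb and the ETS factor Fli1 were above background in all 4 groups. So were the myeloid factors Spi1, Cebpa, Cebpb and Irf8. Ldb1, which holds Lmo2 complexes together, lay near background (5.86 to 6.56) and met the rule in c-kit+ estradiol cells only. Gata2, which met it in no group, covered a similar range (5.98 to 6.56). The erythroid and megakaryocyte factors Gata1, Gfi1b, Klf1 and Nfe2 and the stem cell factors Prdm16 and Hlf were below background on all 12 arrays. Gata1, for example, stayed between 3.56 and 3.86.

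With estradiol 0.181% of all genes passed in c-kit+ cells and 0.291% in CD44+ cells. Ets2, an ETS factor that acts downstream of growth factor signals, was the 1 of 49 that passed, and it rose in CD44+ cells. It had 10.69, 11.04 and 10.99 in CD44+ estradiol cells, against 10.04, 10.09 and 9.86 in CD44+ control cells, a difference of 0.91 (SE 0.12, 1.88-fold, adjusted p = 0.00559). In c-kit+ cells it had 11.04, 10.92 and 11.02 with estradiol, against 10.51, 10.25 and 10.61 in controls, and the difference of 0.53 did not pass (adjusted p = 0.208). The difference between these effects was -0.37 and did not pass either (adjusted p = 1). Cebpb, a factor of inflammatory gene expression in macrophages, differed by 0.77 in c-kit+ cells (adjusted p = 0.844) and by 0.74 in CD44+ cells (adjusted p = 0.734).

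Between the control fractions, 1 of the 49 was higher and 3 were lower in c-kit+ cells, beside 0.539% higher and 1.76% lower over all genes. Irf8, a factor of monocyte and macrophage development, rose by 0.75 (SE 0.16, adjusted p = 0.0239). Klf2, a factor of quiescent cells, fell by 0.75 (SE 0.18, adjusted p = 0.0482). It had 7.98, 7.75 and 7.10 in c-kit+ control cells, against 8.38, 8.26 and 8.43 in CD44+ control cells. The lowest value was that of c-kit+ control replicate 3, the array that deviated most. In estradiol cultures Klf2 averaged 7.94 ± 0.17 in c-kit+ and 7.97 ± 0.01 in CD44+ cells (SD, n = 3 each). The other 2, Meis2, a homeodomain relative of Meis1, and Ebf1, a factor of B cells and of mesenchymal cells, were not above background in any group. Meis2 averaged 3.91 ± 0.15 in c-kit+ control cells and 5.37 ± 0.44 in CD44+ control cells, and Ebf1 averaged 3.99 ± 0.29 in c-kit+ control cells and 5.45 ± 0.60 in CD44+ control cells (SD, n = 3 each).

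Between the estradiol fractions none was higher and 4 were lower in c-kit+ cells, beside 0.324% higher and 2.33% lower over all genes. Sox4, above background in all groups, differed by -1.75 (SE 0.41, adjusted p = 0.0375). Meis2 averaged 3.98 ± 0.20 in c-kit+ estradiol cells and 5.59 ± 0.32 in CD44+ estradiol cells, Ebf1 averaged 4.01 ± 0.36 in c-kit+ estradiol cells and 5.96 ± 0.59 in CD44+ estradiol cells, and Irf4 averaged 4.54 ± 0.10 in c-kit+ estradiol cells and 5.27 ± 0.24 in CD44+ estradiol cells (SD, n = 3 each). Meis2 and Irf4 were below the Y-linked level on all 12 arrays, and Ebf1 was above it on 1, a CD44+ estradiol array. The mesenchymal markers moved with these genes, with 7 of 11 lower in c-kit+ estradiol cells and summed levels of 534 to 986 in c-kit+ estradiol arrays against 3284 to 7227 in CD44+ estradiol arrays. Their part in these differences was not tested.

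The genes whose values over the 12 arrays were most like those of the 3 genes above background were found by Pearson correlation among 8732 other genes above background, as a description. For Lmo2 these were Irf8 (r = 0.98), Vps41, a subunit of the vesicle-tethering HOPS complex (r = 0.95), and Stab1, a scavenger receptor of macrophages and sinusoidal endothelium (r = 0.94). After each group's mean was removed, Irf8 and Lmo2 still had r = 0.92. For Lyl1 they were Rttn (r = 0.93), Rab3il1 (r = 0.90) and Apobec1 (r = 0.87), and for Runx1 Cox6b1 (r = 0.96), Filip1l (r = 0.92) and Phf23 (r = 0.91). The points share their arrays and their normalization, and the genes named are those chosen for a high correlation.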

How the data were processed

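Total RNA was amplified in 2 rounds and labelled with biotin for Affymetrix mouse arrays, per the labels' protocols. The deposited values are log2 values made by the authors with RMA, per the submitters' processing notes; its version was not given in the sources used here. They ran from 2.47 to 14.81, with array medians between 4.75 and 4.84, and were used as deposited. Of 45101 probe sets, 34945 named 1 gene, 932 several and 9160 none, and 64 were controls. A gene's value was that of its brightest probe set by the mean over all arrays. Levels of different probe sets were compared only for background calls, summed marker levels and the order of probe sets by brightness.

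The test of the 18193 genes used limma 3.58.1 (R 4.3.3), with 1 mean per group over all 12 arrays, empirical Bayes moderation without a trend and Benjamini-Hochberg adjustment over all genes at a threshold of 0.05. SEs and intervals are those of this fit, and the script was tested on simulated data. The 5 comparisons were estradiol minus control in each fraction, the difference between both effects, and the fractions (c-kit+ minus CD44+) in each kind of culture. Named were all 10 members, list genes that passed or had the smallest p-values (up to 4 a list and comparison), Kit and Cd44, and the 3 genes most correlated with each member above background; background levels and marker genes beside a result were named after their values were seen. The members and lists were chosen with earlier results of these data known. Equal replicate numbers were checked for pairing, by whether deviations from the group means correlated above 0.1 in all 3 cases. No reported fit used a pairing, and the block alternative entered the replicate number over all 12 arrays. CD44+ estradiol and control arrays met this (0.303, 0.368 and 0.322), as did the estradiol arrays of the fractions (0.447, 0.192 and 0.312). The c-kit+ arrays (0.345, 0.092 and 0.253) and the control arrays of the fractions (0.175, 0.122 and -0.208) did not. Alternatives tried were averaging over a gene's probe sets, every probe set, genes above background, quantile normalization, trend with robust moderation, array weights, the block, the comparison's arrays alone, leaving out each array, other background levels and, added after seeing the data, a Gapdh covariate and a Y-linked level without cross-matching probe sets. Tables and figures used Python 3.11.15, pandas 2.3.3 and matplotlib 3.10.9.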

Additional observations from a re-analysis of the deposited data

How the results depend on the processing

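Of 765 values of the 10 genes under the alternatives, 692 kept their direction and their side of the threshold, 62 that did not pass changed sign without passing, 7 passed where the reported value had not, 4 no longer passed, and no called value reversed. The cause of the changes was not tested. The fits on the comparison's arrays alone and those that leave out an array have fewer samples. Between the control fractions 1 of the 10 genes passed, against 2 with quantile normalization (Tal1 at 0.52, adjusted p = 0.026), 2 with array weights (Tal1 at 0.48, adjusted p = 0.0081), 0 with the comparison's arrays alone, 0 with the Gapdh covariate and 0 to 2 leaving out each array (0 without c-kit+ control replicate 1 or CD44+ control replicate 3, 2 without c-kit+ control replicate 3). Over its alternatives Lmo2 there stayed between 0.60 and 0.83, with adjusted p from 0.0036 to 0.224. Between the estradiol fractions 1 passed with array weights (Lmo2 at 0.47, adjusted p = 0.0434). With estradiol in c-kit+ cells 0 to 1 passed leaving out each array (Tal1 without c-kit+ control replicate 3), and in CD44+ cells 2 passed with array weights (Tal1 at -0.36, adjusted p = 0.0131, and Mecom at 0.49, adjusted p = 0.0248).

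Counts over all genes moved more. Between the control fractions the 418 genes became 1058 with array weights, 693 with the replicate block, 196 with the comparison's arrays alone, 254 with the Gapdh covariate and 221 to 456 leaving out each array. Between the estradiol fractions the 483 became 271 among genes above background, 779 with array weights and 269 to 436 leaving out each array. With estradiol the 33 in c-kit+ cells became 55 with array weights, 62 with the replicate block, 2 with the comparison's arrays alone and 10 to 45 leaving out each array. The 53 in CD44+ cells became 1405 with array weights, 101 with the replicate block and 22 to 76 leaving out each array. The replicate block changed no call among the 10 genes (Lmo2 between the control fractions 0.74, adjusted p = 0.0172), and the difference of the effects gave 0 genes throughout.

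The brightest Y-linked probe set belongs to Sry and is of a kind that the maker marks as matching other transcripts. The members above background were 3 with it, 6 with the olfactory 95th percentile, 6 with the 99th (beside 55.9% of all genes) and 6 with the Y-linked probe sets not so marked, an alternative added after seeing the data (4.19 to 4.54, 70.6% of all genes). The 6 were Lmo2, Lyl1, Runx1, Tal1, Gata2 and Meis1 each time. Of the 23 probe sets, 13 were above the reported level on no array, against 7 with the Y-linked probe sets not so marked. No share over all probe sets was computed for these counts. Near these levels differences are limited by signal over background.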
